A study of Mus musculus with 8 samples.

Results

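The genes described here are the CRK adaptors Crk and Crkl, the exchange factor gene Dock1 with its partners Elmo1 and Elmo2, the GTPase gene Rac1, the CAS-binding genes Bcar3 and Sh2d3c, and the Rap exchange factor gene Rapgef1. They were chosen by gene name from the array annotation, and all 9 were found among the 31709 gene or transcript names on the array, with 12 probes among the 31784 probes kept for testing. The tumours were spontaneous ovarian tumours of untreated female C57BL/6J mice that carried the TgMISIIR-TAg transgene, and the genotypes compared were Nedd9-null (4 mice) and Nedd9-WT (4 mice). Both genotypes carried the transgene, in which the promoter of the Muellerian inhibiting substance type II receptor gene drives SV40 T antigen, so no group here lacks T antigen. Each mouse gave 1 tumour and 1 Agilent array in 1 colour, and the labels state no age.

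NEDD9 and its relative p130Cas (Bcar1) are scaffolds that sit next to focal adhesion kinase and SRC at sites of integrin adhesion. When SRC family kinases phosphorylate the scaffold, the SH2 domains of CRK and CRKL dock on it, and their SH3 domains bring along DOCK1 and RAPGEF1. DOCK1 bound to an ELMO protein loads RAC1 with GTP, which drives lamellipodia and the clearance of dying cells, while RAPGEF1 loads RAP1, which strengthens integrin and cadherin adhesion. BCAR3 and SH2D3C belong to the NSP family, whose exchange-factor-like domain binds the carboxy-terminal end of CAS proteins.

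Levels are log2 processed signals minus the 75th percentile of the same array, which was a signal of 2421 to 3556, so a level of 0 is the signal at that percentile. Levels of different probes are not read as relative amounts of their transcripts, and bright or dim describes the signal of a probe. Each difference is the Nedd9-null mean minus the Nedd9-WT mean, given with its standard error (SE) from limma, and adjusted p-values run over all 31784 probes. Nedd9, the deleted gene, read -2.01, -3.50, -3.39 and -4.03 in the Nedd9-null tumours, against 1.15, 0.84, 1.30 and 1.85 in the Nedd9-WT tumours. The difference of -4.51 (SE 0.44, limma adjusted p = 0.0271) kept its size but did not pass when Nedd9-null replicate 2, 3 or 4 or Nedd9-WT replicate 2, 3 or 4 was left out (limma adjusted p = 0.0893 to 0.121). Whether this probe reads a deleted exon is not given in the sources used here. The arrays of the Nedd9-null group did not form a single cluster. Over all kept probes, Nedd9-null replicate 1 correlated at 0.884 to 0.917 with the other Nedd9-null tumours and at 0.938 to 0.973 with the Nedd9-WT tumours, while Nedd9-null replicates 2 to 4 correlated at 0.977 to 0.984 with each other. Values without that tumour are therefore given beside most results that it touches. The tumour was singled out from these same values as the array least like its group. Leaving it out narrows the spread of that group. Without it 6174 of 31784 probes passed a limma adjusted p of 0.05, against 17 with all 8 tumours. Adjusted p-values without it are therefore descriptions and not independent support. The 4 arrays of each genotype lay on a slide of their own, so slide and genotype cannot be told apart. As a check of the tissue label, 6 of the 10 steroidogenic and follicle cell genes listed, among them Amhr2, Nr5a1, Foxl2 and Inha, were detected over background in all 8 tumours. The other 4 were detected in 4 of 4 Nedd9-WT tumours but in fewer Nedd9-null ones, Cyp11a1 and Hsd3b1 in 2 of 4, and Amh and Fshr in 1 of 4.

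Of the 9 genes, Elmo1 and Bcar3 differed most between the genotypes, followed by the Crk probe A_52_P618807 (-0.77) and Sh2d3c (0.57). Elmo1 and Bcar3 were lower in Nedd9-null replicates 2, 3 and 4 than in any Nedd9-WT tumour. Both were at Nedd9-WT levels or close to them in Nedd9-null replicate 1. Rac1, Crkl and the bright Crk probe were among the steadiest transcripts on the array. With all 8 tumours, 0 of the 12 probes passed a limma adjusted p of 0.05, against 17 of 31784 probes (0.0535%), 13 higher (0.0409%) and 4 lower (0.0126%). That split was 5 higher and 4 lower with the median as the scale, and 3 and 3 after quantile normalization. An unadjusted limma p under 0.05 was found for 3 of the 12 probes (25%), against 24.3% of all probes. The genotypes did not overlap in 2 of the 12 probes (16.7%), both lower in Nedd9-null, against 12.8% of all probes in either direction, 7.16% higher and 5.63% lower. Without Nedd9-null replicate 1, 2 of the 12 probes passed (16.7%), those of Elmo1 and Bcar3, against 19.4% of all probes (10.5% higher and 8.89% lower), and the genotypes did not overlap in 6, against 35.1% of all probes. The shares with all 8 tumours lie near those of the whole array. The median absolute difference was 0.31 for the 12 probes and 0.37 for all probes. RNA came from bulk tumours, in which fewer cells of a type and less RNA per cell cannot be told apart.

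**Figure D1:**
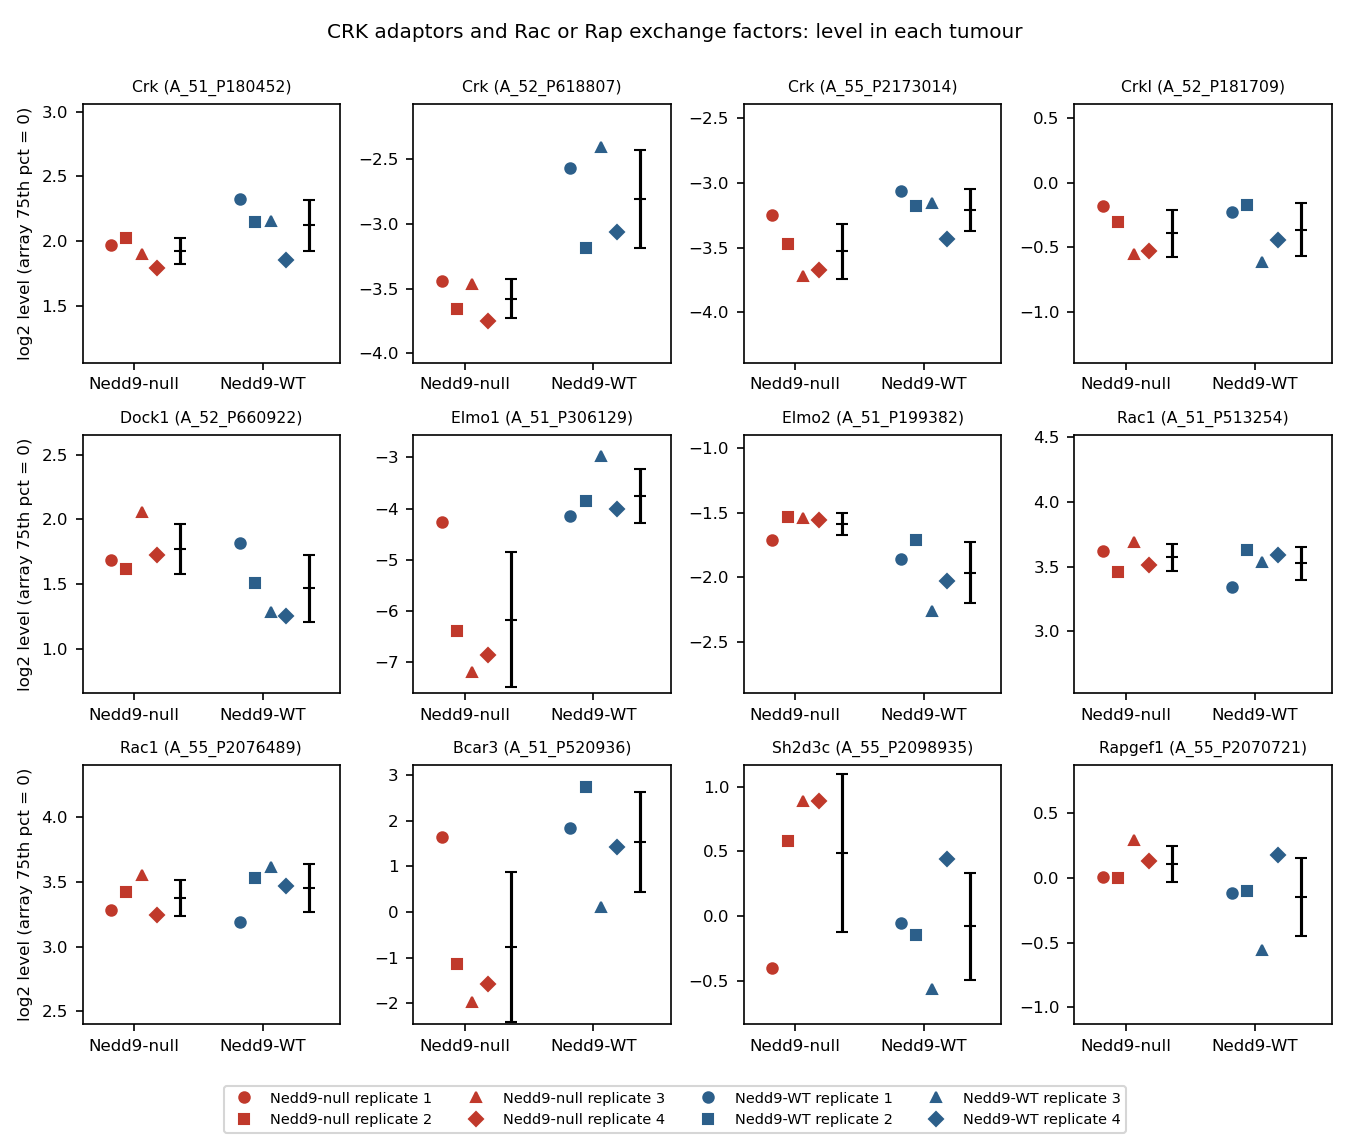
Log2 level of each probe (vertical axis, relative to the 75th percentile of the array) in the 4 Nedd9-null and 4 Nedd9-WT tumours, each tumour with its own symbol; black bars are mean ± SD, and each panel has its own axis. In the Elmo1 and Bcar3 panels, Nedd9-null replicate 1 (circle) lies among or next to the Nedd9-WT tumours and the other 3 Nedd9-null tumours lie below them.

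The CRK adaptors join phosphorylated CAS proteins to their exchange factors. Crkl and the bright Crk probe differed little, and the other Crk probes differed by -0.32 and -0.77. Crk, which makes the CRK-I and CRK-II isoforms, has 3 probes, all at chromosome 11 on the plus strand (mm9). The bright probe A_51_P180452 (75518627 to 75518686) read 1.97, 2.02, 1.90 and 1.79 in the Nedd9-null tumours, against 2.32, 2.15, 2.16 and 1.85 in the Nedd9-WT tumours. The ranges overlapped, and the difference was -0.20 (SE 0.16, limma adjusted p = 0.472), with a 95% interval of -0.56 to 0.16. The dim probe A_55_P2173014 (75517097 to 75517156) averaged -3.53 ± 0.22 in Nedd9-null tumours and -3.21 ± 0.16 in Nedd9-WT tumours (SD, n = 4 each). Its difference was -0.32 (SE 0.17, limma adjusted p = 0.286).

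The Crk probe with the largest difference was A_52_P618807, which lies upstream of the other probes, at 75505892 to 75505951. It is shown because it departs from the bright probe of the same gene, and a forward reading frame is open through all 60 bases.
Crk A_52_P618807: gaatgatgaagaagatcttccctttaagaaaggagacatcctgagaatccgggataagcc
It read -3.44, -3.66, -3.46 and -3.75 in the Nedd9-null tumours, against -2.57, -3.18, -2.40 and -3.07 in the Nedd9-WT tumours. All 4 Nedd9-null values lay below all 4 Nedd9-WT values, Nedd9-null replicate 1 included. The difference was -0.77 (SE 0.22), or 1.71-fold lower, and did not pass (limma adjusted p = 0.103). It was -0.82 (SE 0.24, limma adjusted p = 0.0517) without Nedd9-null replicate 1. The processed signal of this probe was 223 to 294 in the Nedd9-null group, against 351 to 554 in the Nedd9-WT group, well above background on all 8 arrays. Hence the 3 Crk probes had differences of the same sign and of unequal size, from -0.77 to -0.20, and whether they report different Crk transcripts was not tested.

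Crkl, the CRK-like adaptor (probe A_52_P181709, chromosome 16, 17486238 to 17486297, plus strand, mm9), read -0.18, -0.31, -0.55 and -0.53 in the Nedd9-null tumours, against -0.22, -0.18, -0.61 and -0.44 in the Nedd9-WT tumours. The ranges almost coincided. The difference was -0.03 (SE 0.17, limma adjusted p = 0.936), with a 95% interval of -0.42 to 0.37. The standard deviation of Crkl over the 8 tumours was 0.18, and 6.35% of all probes had a lower one.

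Dock1 encodes the Rac exchange factor DOCK180, which CRK recruits (probe A_52_P660922, chromosome 7, 142365246 to 142365305, plus strand, mm9). It read 1.68, 1.62, 2.06 and 1.72 in the Nedd9-null tumours, against 1.82, 1.51, 1.28 and 1.25 in the Nedd9-WT tumours. Nedd9-WT replicate 1 lay within the Nedd9-null range. The difference was 0.31 (SE 0.19, limma adjusted p = 0.356), with a 95% interval of -0.13 to 0.74.

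The ELMO proteins hold DOCK exchange factors in their active form, and their genes had differences of opposite sign. Elmo1, which in mammals is abundant in leukocytes and also occurs in other tissues, was lower in the Nedd9-null tumours, whereas Elmo2, its broadly expressed relative, was slightly higher. The Elmo1 probe aligns over 10513 bases of chromosome 13 (20681555 to 20692067, plus strand, mm9), so that its 60 bases come from separate blocks of the gene. The Elmo2 probe lies at chromosome 2, 165119746 to 165119805 (minus strand, mm9). The probes are shown together because they cover related stretches of the gene pair. Without gaps they overlap by 36 bases, of which 30 are identical, and capitals mark the identical bases.
Elmo1 A_51_P306129: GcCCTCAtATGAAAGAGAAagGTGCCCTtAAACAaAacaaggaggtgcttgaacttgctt
Elmo2 A_51_P199382: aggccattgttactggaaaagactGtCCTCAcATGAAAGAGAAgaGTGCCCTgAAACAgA
Cross-hybridisation between the gene pair was not tested.

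Elmo1 read -4.26, -6.38, -7.18 and -6.85 in Nedd9-null replicates 1 to 4, against -4.15, -3.86, -2.98 and -4.00 in Nedd9-WT replicates 1 to 4. All Nedd9-null values were below all Nedd9-WT values, but replicate 1 by only a small margin, while replicates 2 to 4 lay more than 2 log2 units below the lowest Nedd9-WT tumour. Elmo1 averaged -6.17 ± 1.31 in the Nedd9-null group, against -3.75 ± 0.52 in the Nedd9-WT group (SD, n = 4 each). The difference of -2.42 (SE 0.63), or 5.35-fold lower, did not pass with all 8 tumours (limma adjusted p = 0.0943). Without Nedd9-null replicate 1 it was -3.05 (SE 0.33), or 8.31-fold lower, and passed (limma adjusted p = 0.00132). The Elmo1 probe was dim. Its processed signal was 127, 41, 22 and 31 in the Nedd9-null tumours, against 161, 220, 370 and 185 in the Nedd9-WT tumours. The spot was well above background on all 8 arrays, but the lowest signals that met that mark were 13.9 to 18.7 on the Nedd9-null arrays and 12.6 to 19.9 on the Nedd9-WT arrays, so the size of its fold depends on the background correction. The difference was -1.41 (SE 0.38, limma adjusted p = 0.0842) with normexp background correction and -1.72 (SE 0.38, limma adjusted p = 0.0801) in the authors' deposited value table.

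Elmo2 read -1.71, -1.53, -1.54 and -1.56 in the Nedd9-null tumours, against -1.86, -1.71, -2.26 and -2.03 in the Nedd9-WT tumours. Nedd9-null replicate 1 and Nedd9-WT replicate 2 were level at -1.71, and the other Nedd9-null tumours lay above every Nedd9-WT tumour. The difference was 0.38 (SE 0.16, limma adjusted p = 0.207), and 0.42 (SE 0.17, limma adjusted p = 0.141) without Nedd9-null replicate 1. Within each array, the log2 difference Elmo1 minus Elmo2, taken as its departure from the Nedd9-WT mean, was -0.76, -3.06, -3.86 and -3.50 in the Nedd9-null tumours and -0.51, -0.36, 1.06 and -0.19 in the Nedd9-WT tumours. Every Nedd9-null tumour lay below the Nedd9-WT range, Nedd9-null replicate 1 by the smallest step. This ratio was not tested. It shows unequal change of the gene pair and says nothing on their absolute amounts.

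Rac1, the GTPase on which DOCK1 and ELMO act, showed little difference between the genotypes by either probe. Probe A_51_P513254 (chromosome 5, 144266757 to 144266816, minus strand, mm9) read 3.62, 3.46, 3.70 and 3.51 in the Nedd9-null tumours, against 3.34, 3.63, 3.54 and 3.59 in the Nedd9-WT tumours. Its difference was 0.05 (SE 0.14, limma adjusted p = 0.869), with a 95% interval of -0.28 to 0.38. Probe A_55_P2076489 (144267722 to 144267781) read 3.28, 3.42, 3.55 and 3.25 in the Nedd9-null tumours and 3.19, 3.53, 3.61 and 3.47 in the Nedd9-WT tumours, with a difference of -0.08 (SE 0.16, limma adjusted p = 0.807) and a 95% interval of -0.44 to 0.29. Both intervals leave out a doubling or halving, which is 1 log2 unit. The signs of these near-zero differences depended on the scale. Rac1 varied little over the 8 tumours, with standard deviations of 0.11 and 0.16, and only 0.758% and 3.89% of all probes varied less. The median over all probes was 0.47.

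**Figure D2:**
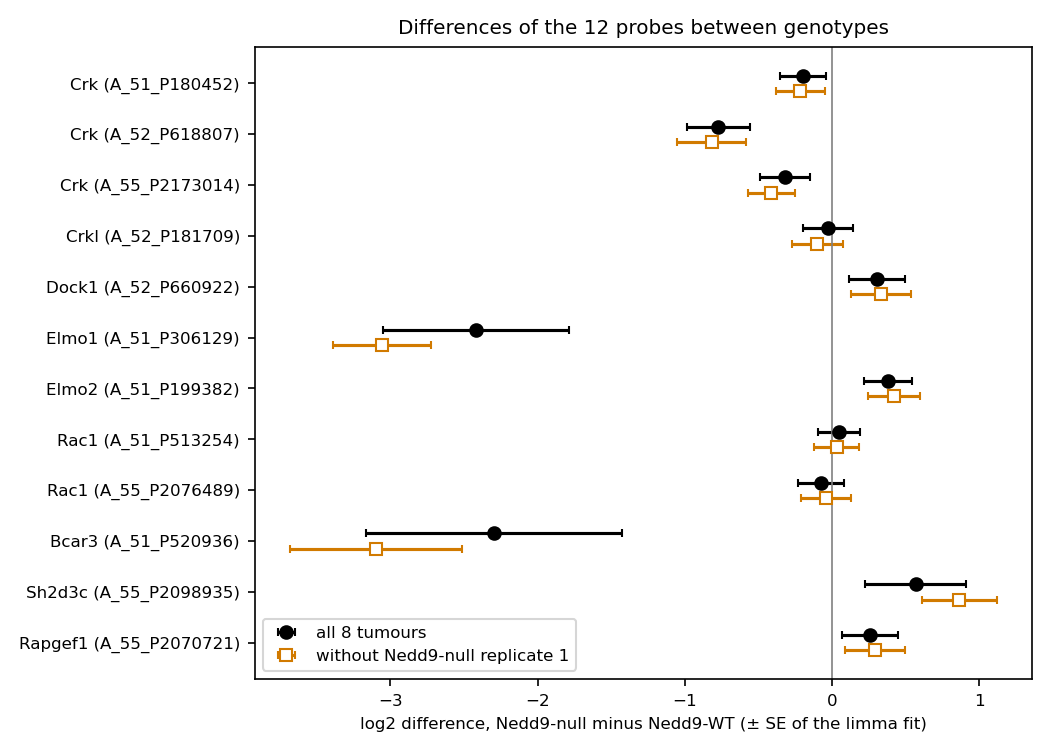
Log2 difference, Nedd9-null minus Nedd9-WT, of the 12 probes (horizontal axis), with bars of 1 SE of the limma fit, for all 8 tumours (black circles) and without Nedd9-null replicate 1 (open squares). Elmo1 and Bcar3 are the probes farthest from 0, at -2.42 and -2.29 with all tumours, and both Rac1 probes lie at 0.05 and -0.08.

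The NSP family genes bind CAS proteins directly, and they too had differences of opposite sign. Bcar3, whose product binds p130Cas and NEDD9 and was first known for antioestrogen resistance in human breast cancer cells, has its probe A_51_P520936 at chromosome 3, 122232748 to 122232807 (plus strand, mm9). It read 1.65, -1.15, -1.98 and -1.59 in Nedd9-null replicates 1 to 4, against 1.84, 2.74, 0.11 and 1.42 in Nedd9-WT replicates 1 to 4. Nedd9-null replicate 1 lay within the Nedd9-WT range, and Nedd9-WT replicate 3 was the lowest of its group. Bcar3 averaged -0.77 ± 1.64 in the Nedd9-null group, against 1.53 ± 1.09 in the Nedd9-WT group (SD, n = 4 each). The difference was -2.29 (SE 0.87), or 4.91-fold lower, and did not pass (limma adjusted p = 0.164). Without Nedd9-null replicate 1 it was -3.10 (SE 0.58), or 8.57-fold lower, and passed (limma adjusted p = 0.0112). The Bcar3 probe was bright, with processed signals of 820 to 7574 in the Nedd9-null group, against 3164 to 21249 in the Nedd9-WT group. Its difference held its size with normexp (-2.27) and in the authors' deposited value table (-2.31).

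Sh2d3c, which encodes the CAS-binding protein also known as SHEP1 or CHAT, has its probe A_55_P2098935 at chromosome 2, 32610434 to 32610493 (plus strand, mm9). It read -0.40, 0.58, 0.89 and 0.89 in the Nedd9-null tumours, against -0.05, -0.15, -0.56 and 0.44 in the Nedd9-WT tumours. Nedd9-null replicates 2 to 4 lay above every Nedd9-WT tumour, and Nedd9-null replicate 1 lay near the lower end of the Nedd9-WT range. The difference was 0.57 (SE 0.34, limma adjusted p = 0.349), and 0.86 (SE 0.25, limma adjusted p = 0.0540) without Nedd9-null replicate 1. The within-array log2 difference Bcar3 minus Sh2d3c departed from its Nedd9-WT mean by 0.44, -3.34, -4.48 and -4.08 in the Nedd9-null tumours, and by 0.28, 1.28, -0.93 and -0.63 in the Nedd9-WT tumours. The same measure for Crk minus Crkl, taken from the bright Crk probe, was -0.33 to -0.03 in the Nedd9-null group, against -0.19 to 0.29 in the Nedd9-WT group. By that probe those adaptors kept nearly the same ratio. The Crk probe A_52_P618807 differed by -0.77, against -0.03 for Crkl, and its ratio to Crkl was not computed.

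Rapgef1 encodes the exchange factor that CRK brings to the membrane to load RAP1 (probe A_55_P2070721, chromosome 2, 29595824 to 29595883, plus strand, mm9). It read 0.01, 0.00, 0.30 and 0.13 in the Nedd9-null tumours, against -0.11, -0.10, -0.55 and 0.18 in the Nedd9-WT tumours. Nedd9-WT replicate 4 lay within the Nedd9-null range. The difference was 0.26 (SE 0.19, limma adjusted p = 0.444), with a 95% interval of -0.18 to 0.70.

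Markers of cell types that the tumours could hold were set beside these genes, since Elmo1 is a leukocyte gene in part and Sh2d3c is expressed in blood and endothelial cells. The score of a list is the mean log2 departure of its genes from the Nedd9-WT mean. All 18 leukocyte genes were measured, 0 of their 24 probes passed (limma, with 0 at an unadjusted p under 0.05), and the scores were -0.48, 1.02, 0.30 and 0.09 in the Nedd9-null tumours and 0.28, -0.98, 0.80 and -0.10 in the Nedd9-WT tumours. The 3 tumours with the least Elmo1, Nedd9-null replicates 2 to 4, had leukocyte scores of 1.02, 0.30 and 0.09. A single bright Itgam probe (A_55_P1977934, at 5.84 in Nedd9-null replicate 1) took most of the summed signal in that tumour, while the other Itgam probes read -5.62 to -2.06. Without Itgam, left out after its values were seen, the sum over 17 genes relative to the 75th percentile was 10.2 to 36.4 in the Nedd9-null group, against 9.36 to 48.6 in the Nedd9-WT group, and 25 to 67.5, against 21.8 to 55.5, with it. Both forms overlapped between genotypes. Among Nedd9-WT tumours, replicate 3 had the highest Elmo1 level and the highest Nedd9-WT leukocyte score. The part of leukocytes in the Elmo1 values was not tested.

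Other marker lists differed in the same 3 tumours as Elmo1 and Bcar3, though with all 8 tumours 0 of their probes passed either (limma adjusted p of 0.05): 0 of 12 steroidogenic and follicle, 0 of 13 ciliated and 0 of 12 epithelial probes, with 8, 12 and 4 at an unadjusted p under 0.05. Without Nedd9-null replicate 1, 7 steroidogenic and follicle probes passed lower, 12 ciliated probes higher and 7 epithelial probes higher. Of the 24 leukocyte probes 0 passed, and of all probes 10.5% passed higher and 8.89% lower. All 10 steroidogenic and follicle cell genes were measured, and their scores were -0.39, -2.92, -5.39 and -5.43 in the Nedd9-null tumours, against 0.08, 0.46, -0.30 and -0.23 in the Nedd9-WT tumours. The summed signal of this list was 18.9 to 145 in the Nedd9-null group, against 125 to 217 in the Nedd9-WT group. The scores of the 10 ciliated oviduct cell genes were 2.12, 5.77, 6.36 and 6.24 in the Nedd9-null tumours, against 1.96, -0.72, -0.78 and -0.45 in the Nedd9-WT tumours, and the summed signals were 67.5 to 173, against 10.4 to 24.3. Ccdc113 and Dnali1 were over background in 2 and 3 of 4 Nedd9-WT tumours, with Nedd9-WT signals down to 5 and 18. The size of these scores therefore rests partly on Nedd9-WT signals at background. Spag6 was read by a probe that now carries the name Spag6l. The Mcidas probe (A_55_P2077143), whose levels followed the bright Itgam probe and not the other ciliated genes, made up most of the smaller sums. Without Mcidas, left out after its values were seen, the sums were 10.5 to 154 in the Nedd9-null group, against 2.45 to 5.72 in the Nedd9-WT group. Those of the 11 epithelial genes were -0.66, 2.21, 2.20 and 1.28 in the Nedd9-null tumours, against -0.48, 0.49, -0.02 and 0.01 in the Nedd9-WT tumours, with summed signals of 6.13 to 109 and 11.5 to 55.8. In all 3 lists Nedd9-null replicates 2 to 4 stood apart from the other 5 tumours, as they did for Elmo1 and Bcar3. The part of these cell types in the Elmo1 and Bcar3 values was not tested. Of the 14 endothelial probes 0 passed, with 7 at an unadjusted p under 0.05, and the scores of the 12 listed genes were -0.77 to -0.68 in all 4 Nedd9-null tumours and -0.46 to 0.75 in the Nedd9-WT tumours, with summed signals of 6.49 to 7.19 and 8.85 to 16.9. Sh2d3c was highest in Nedd9-null replicates 3 and 4, whose endothelial scores of -0.72 and -0.77 lay below every Nedd9-WT tumour. Among the Nedd9-WT tumours it was highest in replicate 4, which also had the highest endothelial score. The part of endothelial cells in the Sh2d3c values was not tested. The fibroblast and smooth muscle scores overlapped between Nedd9-null (-0.60 to 0.47) and Nedd9-WT tumours (-1.21 to 1.06).

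**Figure D3:**
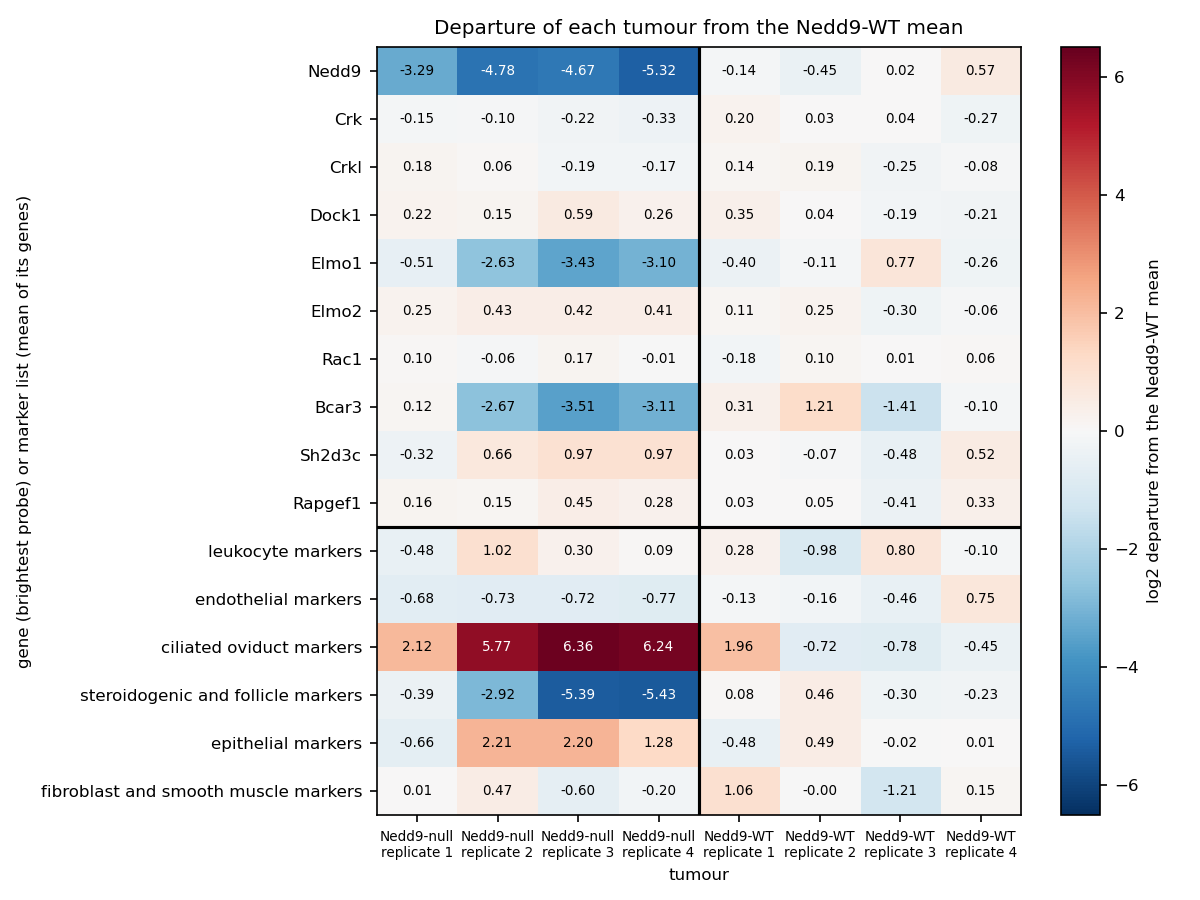
Log2 departure of each tumour (columns, Nedd9-null left and Nedd9-WT right) from the Nedd9-WT mean, for Nedd9 and the brightest probe of each of the 9 genes (above the line) and for the mean of each marker list (below it). Blue is lower and red is higher than the Nedd9-WT mean; Elmo1 and Bcar3 are low in the same 3 Nedd9-null tumours in which the steroidogenic list is at -5.43 to -2.92, and the leukocyte list is at 0.09 to 1.02 there.

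Bcar3, Elmo1 and Sh2d3c had the largest standard deviations over the 8 tumours (1.78, 1.59 and 0.57 for their probes). For these genes the transcripts with the most similar profile were sought among 17195 other named genes, by the root mean square (RMS) difference of log2 levels centred on their mean over the 8 tumours. Closest to Bcar3 were Hsd17b7, an enzyme of steroid and cholesterol synthesis (RMS 0.26), Itga4, the integrin alpha 4 subunit (0.32), and Prcd, a photoreceptor disc gene (0.32). Hsd17b7 read 0.33, -2.79, -3.46 and -3.10 in the Nedd9-null tumours, against 0.13, 0.90, -0.83 and -0.26 in the Nedd9-WT tumours, with Nedd9-WT replicate 3 lowest in its group, as for Bcar3. Closest to Elmo1 were the ETS transcription factor gene Etv5 (0.19), Strip2 (0.24) and the aldo-keto reductase gene Akr1b8 (0.27). Etv5 read 2.42, -0.21, -0.99 and -0.66 in the Nedd9-null tumours, against 1.91, 2.62, 3.44 and 2.17 in the Nedd9-WT tumours, with Nedd9-WT replicate 3 highest, as for Elmo1. Closest to Sh2d3c were Dph6 (0.16), the keratin gene Krt80 (0.18) and the motor gene Myo5a (0.20). Bcar3 and Elmo1 differed from each other by an RMS of 0.96; Nedd9-WT replicate 3 was the lowest Nedd9-WT tumour for Bcar3 and the highest for Elmo1. These likenesses are descriptions over 8 tumours that fall into separate clusters, and no correlation was computed. The nearest genes were picked by these same 8 levels, so a shared order of tumours follows from that choice.

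The surrounding pathway was read from lists of 114 genes besides Nedd9, of which 111 had a kept probe. With all 8 tumours, 0 of their 160 probes passed (limma adjusted p of 0.05), against 0.0535% of all probes. An unadjusted p under 0.05 was found for 50 probes (31.2%), against 24.3%. Without Nedd9-null replicate 1, 25 probes passed higher and 20 lower (28.1%), against 19.4% of all probes. The median difference of the 160 probes was -0.03, beside 0.02 for all probes. The differences below are therefore values that did not pass with all 8 tumours.

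Among the CAS scaffolds and other proteins on which CRK docks, Efs, the third CAS family scaffold, differed by 1.04 (SE 0.22, limma adjusted p = 0.0803), with all 4 Nedd9-null tumours above all Nedd9-WT tumours. It passed at 1.09 without Nedd9-null replicate 1 (limma adjusted p = 0.0204). Irs4, an insulin receptor substrate, has a pair of probes that disagreed in size. A_51_P344552, detected over background in all 8 tumours, differed by 0.76 (limma adjusted p = 0.127), and by 0.84 without Nedd9-null replicate 1 (limma adjusted p = 0.0720). A_52_P57205 gave signals of 35, 2275, 1809 and 353 in the Nedd9-null tumours, against 42, 5, 4 and 3 in the Nedd9-WT tumours, of which 1 of 4 was over background. Its fitted difference of 6.03 (SE 1.38, limma adjusted p = 0.0852) therefore rests mostly on Nedd9-WT signals at background. Bcar1, named after its value was seen as the scaffold that binds BCAR3, differed by -1.39 (SE 0.39, limma adjusted p = 0.103). It read 2.52, 1.17, 0.93 and 0.70 in the Nedd9-null tumours, against 2.57, 2.56, 3.03 and 2.72 in the Nedd9-WT tumours, the same split of Nedd9-null replicate 1 from replicates 2 to 4 as in Bcar3. Without that tumour it passed at -1.79 (limma adjusted p = 0.00128). Of the 14 probes of this list, Nedd9 included, 2 passed higher and 3 lower without that tumour, against 10.5% and 8.89% of all probes. Of the other adaptors and ABL kinases, Abl2 differed by -0.64 (SE 0.18, limma adjusted p = 0.101), Nck1 by 0.60 (SE 0.21, limma adjusted p = 0.139) and Grap by -0.70 (SE 0.33, limma adjusted p = 0.235). Abl2 and Nck1 passed without Nedd9-null replicate 1, at -0.75 and 0.74 (limma adjusted p = 0.0178 and 0.0332), and Grap did not (-0.52, limma adjusted p = 0.308). Of the 11 adaptor and ABL kinase probes, 1 passed higher and 1 lower without that tumour, against the same shares of all probes.

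In the list of other DOCK and ELMO genes, 9 of 15 probes had positive differences, against 16385 of 31784 over the whole array, with a median of 0.16. Dock9 and the probe A_52_P280114 of Dock4 were at 0.74 and 0.47 (limma adjusted p = 0.178 and 0.217), and at 0.81 and 0.60 without Nedd9-null replicate 1 (limma adjusted p = 0.136 and 0.0724). Of all probes 10.5% passed higher and 8.89% lower without that tumour. In this list the median was then 0.49, and 2 of the 15 probes passed higher and 2 lower. These, named after their values were seen, were a second Dock4 probe (A_52_P682745) at 1.55, Dock6 at 0.68 and both Dock11 probes at -0.90 and -0.91 (limma adjusted p = 0.00376, 0.0403, 0.0126 and 0.0105). With all 8 tumours the second Dock4 probe was at 1.00 (limma adjusted p = 0.277).

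Of the other Rac exchange factors, 18 of 25 probes had positive differences, with a median of 0.29. Without Nedd9-null replicate 1, 10 of the 25 passed higher and 3 lower, against 10.5% and 8.89% of all probes. Kalrn, the exchange factor kalirin, has 4 probes, which differed by 0.29 to 3.72. The probe with the smallest p, A_66_P108214, differed by 2.84 (SE 0.52, limma adjusted p = 0.0656) and was over background in 1 of 4 Nedd9-WT tumours. A_55_P2095844, over background in all 8 tumours, differed by 1.43 (limma adjusted p = 0.0931), and by 1.78 without Nedd9-null replicate 1 (limma adjusted p = 0.00143). Arhgef4 likewise has a dim probe, A_55_P2256943, at 2.57 (SE 0.54, limma adjusted p = 0.0782), over background in 1 of 4 Nedd9-WT tumours. Its brighter probe A_51_P260504 was over background in all 8 tumours and differed by 1.43 (limma adjusted p = 0.220), and by 2.14 without Nedd9-null replicate 1 (limma adjusted p = 0.000399).

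The Rap exchange factor list had a median of -0.05 and held Rasgrp1, a RAS guanyl releasing protein gene whose product responds to diacylglycerol. Its action on Rap was not measured. Rasgrp1 read -3.04, -5.83, -6.79 and -7.19 in the Nedd9-null tumours, against -1.55, -1.35, -1.98 and -2.49 in the Nedd9-WT tumours, without overlap. The difference was -3.87 (SE 0.86, limma adjusted p = 0.0815), and -4.76 without Nedd9-null replicate 1 (limma adjusted p = 0.000501). Rapgefl1 differed by -2.19 (SE 0.47, limma adjusted p = 0.0803), and by -2.52 without that tumour (limma adjusted p = 0.00667). Rapgef4, the cyclic AMP sensor EPAC2, was not well above background in any Nedd9-WT tumour. Its probe was kept only through the Nedd9-null group, so the filter favoured this direction. The Nedd9-null mean lay at least 1.95-fold above the Nedd9-WT mean, and the difference did not pass (limma adjusted p = 0.174). Such bounds set the mean of the brighter group against the lowest signal that counts as well above background on each array of the other. They concern group means only and carry no sampling error. Of the 12 probes of this list, 1 passed higher and 2 lower without Nedd9-null replicate 1, against 10.5% and 8.89% of all probes.

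The small GTPases had negative differences in 8 of 11 probes, against 15399 of 31784 over the whole array, with a median of -0.23. Rap2a differed by 1.03 (SE 0.22, limma adjusted p = 0.0807) and Rap2b by -1.04 (SE 0.29, limma adjusted p = 0.101). Both passed without Nedd9-null replicate 1, at 1.23 and -1.30 (limma adjusted p = 0.00215 and 0.00455). Of the 11 GTPase probes, 2 passed higher and 2 lower without that tumour, against 10.5% and 8.89% of all probes. Rap1a was not well above background in any Nedd9-null tumour, and its probe was over background in 3 of 4 Nedd9-WT tumours. The probe was kept only through the Nedd9-WT group, so the filter favoured this direction. The Nedd9-null mean lay at least 1.52-fold below the Nedd9-WT mean, and the difference did not pass (limma adjusted p = 0.101). Among the GTPase-activating proteins and other inhibitors, 15 of 32 probes were positive and 17 negative. Srgap3, Chn1 and Abr, which lower Rac activity, differed by -2.11, 1.32 and 0.51 (limma adjusted p = 0.110, 0.133 and 0.150). They were at -2.34, 1.55 and 0.60 without Nedd9-null replicate 1 (limma adjusted p = 0.0504, 0.0539 and 0.0548). Without that tumour 0 of the 32 probes passed higher and 1 lower, against 10.5% and 8.89% of all probes.

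Rac effectors had negative differences in 17 of 24 probes, against 15399 of 31784 over the whole array, with a median of -0.24. The p21-activated kinase genes Pak1 and Pak3 differed by -1.77 (SE 0.41) and -2.99 (SE 0.98), and the WAVE complex gene Wasf1 by -1.40 (SE 0.44), with limma adjusted p-values of 0.0865, 0.128 and 0.121. Pak1 did not overlap between the genotypes. All 3 passed without Nedd9-null replicate 1, at -1.60, -4.03 and -1.80 (limma adjusted p = 0.0419, 0.000842 and 0.00722). Without that tumour 1 of the 24 Rac effector probes passed higher and 3 lower, against 10.5% and 8.89% of all probes. Among Rap effectors, the talin gene Tln2 differed by 1.42 (SE 0.30, limma adjusted p = 0.0784), Ralgds by 1.70 (SE 0.53, limma adjusted p = 0.118) and a Radil probe that was over background in 2 of 4 Nedd9-WT tumours by 2.47 (SE 0.66, limma adjusted p = 0.0988). Tln2 and Ralgds passed without Nedd9-null replicate 1, at 1.55 and 2.23 (limma adjusted p = 0.0147 and 0.00293). The Radil probe was then at 3.04 (limma adjusted p = 0.00577). It was kept only through the Nedd9-null group, and its difference rests partly on Nedd9-WT signals at background. Without Nedd9-null replicate 1, 6 of the 17 Rap effector probes, this Radil probe among them, passed higher and 4 lower, against 10.5% and 8.89% of all probes.

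**Figure D4:**
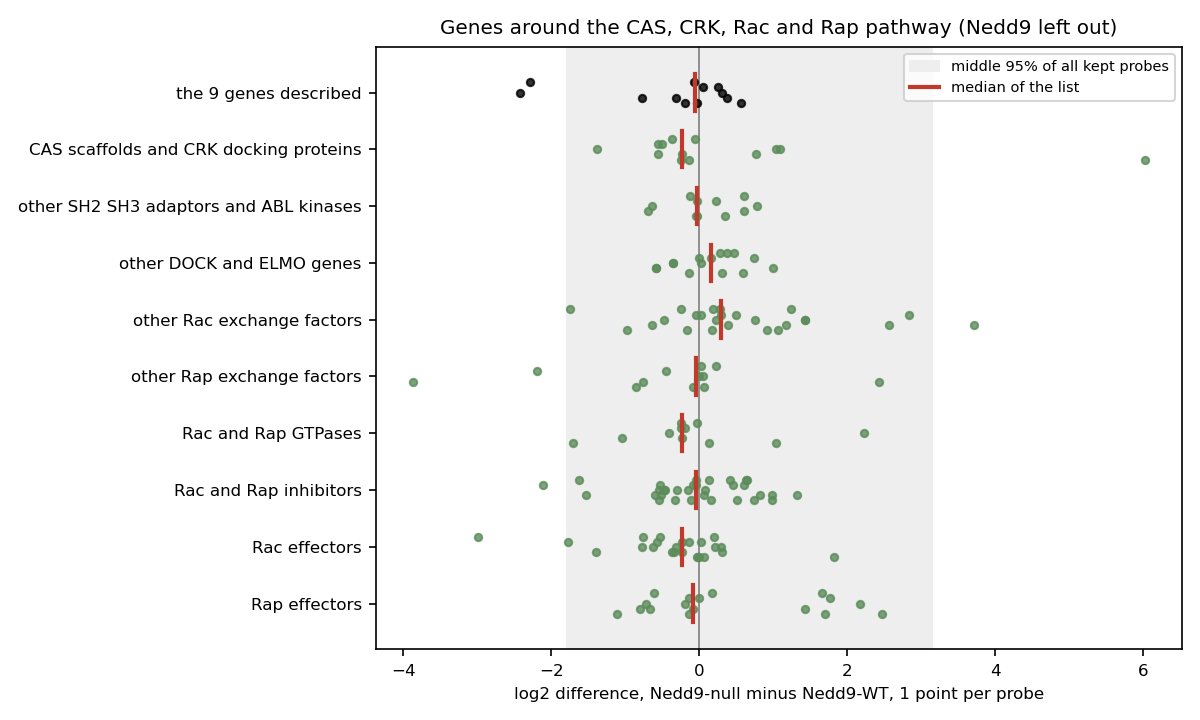
Log2 difference, Nedd9-null minus Nedd9-WT, of every kept probe (points) of the 9 genes and of 9 lists around the pathway, Nedd9 left out; red bars are list medians, and the grey band holds the middle 95% of all 31784 probes, from -1.79 to 3.14. Of the 12 probes of the 9 genes, those of Elmo1 (-2.42) and Bcar3 (-2.29) lie outside the band.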

How the data were processed

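The authors' deposited spot files hold intensity values of 1-colour arrays made with Agilent Feature Extraction 9.5.3, per the submitters' processing notes. Per the file headers, the software had subtracted background and spatial trend to give the processed intensity, with probe coordinates in mm9. The deposited table of log2 values, whose median over all spots is 8.24 in every column, was used as an alternative. Its scale and background step are not stated in the sources used here. Its values correlated at 0.9990 to 0.9999 with the log2 median spot signal before background subtraction. They correlated at 0.978 to 0.987 with the log2 processed signal. The columns of the deposited files that hold other values (flags for background, saturation and outliers) were used as such.

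Of 44397 spots, 1377 controls were left out, as were 194 to 292 outlier spots per array. Log2 processed intensity minus the 75th percentile of the array was averaged per probe. Of 39429 probes, 27 lacked a value, and 31784 met the background flag in 3 or more tumours of either genotype and were kept. All 12 probes of the 9 genes passed on all 8 arrays, each is 1 spot, and 0 were saturated. Other names were updated through RefSeq (GRCm38.p6, names only): 26055 by accession, 3195 by symbol, 930 by synonym and 9249 kept.

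The test was limma (version 3.58.1, R 4.3.3; 2-sided, Benjamini-Hochberg, prior degrees of freedom 1.86). In 10 simulated data sets of the 31784 probes of this comparison, 17.0% of probes changed by 1 log2 unit, 55.4% by 2 and 82.9% by 4 were recovered, with 3.86% false calls. Each sample is a separate mouse. The number of arrays limits the precision. Groups and replicate numbers come from the sample titles. Members, lists and tests were chosen with earlier results of these data known. Genes named are the 9, Nedd9, up to 3 per pathway list by p, and the 3 nearest profiles of the 3 most variable of the 9. Some genes that this rule names are not reported here. Bcar1, Dock6, Dock11 and the marker genes were named outside the rule, after their values were seen. Alternatives covered background, scale, filters, probes per gene, replicate block, array weights, variance model and leaving out each array.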

Additional observations from a re-analysis of the deposited data

Results flagged for a closer look

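Dixon's outlier test was applied to each genotype's 4 values of Nedd9, the 12 probes, 6 marker scores and 3 within-array differences, 44 groups in all, of which 3 passed; chance flags about 1 in 20 groups. For Elmo2, Nedd9-null replicate 1 (-1.71) stood below the other Nedd9-null tumours (-1.56 to -1.53), with a ratio of gap to range of 0.869. The ciliated oviduct score of Nedd9-null replicate 1 (2.12) stood below the other Nedd9-null tumours (5.77 to 6.36), with a ratio of 0.860. The same score in Nedd9-WT replicate 1 (1.96) stood above the other Nedd9-WT tumours (-0.78 to -0.45), with a ratio of 0.882.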

How the results depend on the processing

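The count of 0 of 12 probes of the 9 genes held in 16 of 18 alternatives; it was 2 without Nedd9-null replicate 1 (range over single arrays left out 0 to 2) and 4 with array weights (Crk A_52_P618807, Elmo1, Bcar3 and Sh2d3c, limma adjusted p = 0.0256, 0.00331, 0.00634 and 0.0486). The pathway count of 0 became 45 without Nedd9-null replicate 1 (range 0 to 45) and 59 with array weights. The count over all probes (17) was 9 with the median as the scale, 6 after quantile normalization, 9 with probes above background on all 8 arrays, 0 with the replicate block, 7848 with array weights, and 0 to 6174 with single arrays left out: among Nedd9-null tumours, leaving out replicate 1 gave 6174, replicate 2 or 3 gave 0 and replicate 4 gave 2; among Nedd9-WT tumours, replicate 1 gave 46, replicate 2 gave 2, replicate 3 gave 1 and replicate 4 gave 0. Where 0 probes passed, 4984 to 6883 had an unadjusted p under 0.05. The Nedd9 difference was -4.92 to -4.25 over all alternatives and did not pass with the replicate block or without Nedd9-null replicate 2, 3 or 4 or Nedd9-WT replicate 2, 3 or 4 (limma adjusted p = 0.0893 to 0.213). Signs turned only in near-zero values: with single arrays left out Crkl was -0.11 to 0.033 and Rac1 A_51_P513254 -0.012 to 0.085; Rac1 A_51_P513254 was -0.14 with the median as the scale, and Rac1 A_55_P2076489 was 0.0090 in the deposited value table. Over all alternatives Elmo1 was -3.05 to -1.41, Bcar3 -3.24 to -1.89, Sh2d3c 0.38 to 0.86, Elmo2 0.19 to 0.46 and Dock1 0.11 to 0.42. The median as the scale put the median of all probes at -0.17, against 0.02. Same-numbered arrays did not deviate together (r = -0.24 to -0.04), so numbers were not taken to pair mice; the replicate block gave 0 probes of the 9 genes. Causes were not tested. In the Nedd9-null tumours the Elmo1 probe had the lowest signals of the 12 probes. The mean Nedd9-null score was 0.21 without Itgam, against 0.23, for leukocyte genes, and 5.63 without Mcidas, against 5.12, for ciliated genes; both alternatives were chosen after seeing the data.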
